A study of Mus musculus with 9 samples.

Results

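The genes followed here are 4 laminin alpha chains (Lama1, Lama2, Lama4 and Lama5), the laminin beta chain Lamb2, the laminin gamma chain Lamc1, the nidogens Nid1 and Nid2, and perlecan (Hspg2). They are 9 of the 34733 genes with a probe on the array and are covered by 13 of its 55666 probes, found by gene name among the probes that are not controls. The genes were chosen by the low array signal of Lamb2 in the MADM glioma cells. Values that set MADM glioma cells against neural stem cells or astrocytes are therefore given as a description with no test, as is Lamb2 in EZH2-KO glioma tissue against MADM glioma cells. Expression was measured in 9 mouse samples, each hybridised to 1 single-colour Agilent 8x60K array. The groups were glioma tissue with EZH2 knocked out (3 samples), glioma cells (2), neural stem cells (2) and astrocytes (2). Both glioma groups have the background Mosaic Analysis with Double Markers (MADM), a system in which mitotic recombination yields sparse labelled mutant cells. For the MADM glioma cells the labels name no genotype, and for the tissue none beyond the EZH2 knockout. The neural stem cells and astrocytes came from the brains of normal wild-type C57BL/6J mice. Ages, the lesions that start the gliomas, the driver of the knockout, and the number of animals or cultures behind each group are not given in the sources used here. The p-values thus cover the spread among these arrays alone, which may be technical.

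Laminins are cross-shaped trimers of 1 alpha, 1 beta and 1 gamma chain that polymerise into the sheet on which a basement membrane is built. Nidogens and perlecan tie the laminin sheet to the collagen IV network. In brain, basement membranes surround blood vessels and underlie the pia, where astrocyte endfeet, endothelial cells, pericytes and meningeal cells all deposit chains. The same proteins, read through integrins and dystroglycan, are also part of the niche of neural stem cells and of the matrix along which glioma cells invade.

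Levels are given in log2 units relative to the 75th percentile of the same array, so 0 is the level of a probe brighter than most others there. Levels are compared between samples and not between probes. The 75th percentile lay between 415 and 897 intensity units and 60.1% to 65.7% of spots were well above background. A gene was called changed at a Benjamini-Hochberg adjusted p under 0.05 in limma and a difference of at least 2-fold. The 3 tissue arrays shared 1 slide, scan and software version and the 6 cell arrays shared another, so the EZH2 knockout, tissue against cells, and slide, scan or software cannot be told apart in any tissue difference given here. The single Ezh2 probe, near the 3′ end of the transcript, read 1.91, 1.62 and 1.48 in EZH2-KO glioma tissue, 3.03 and 3.24 in MADM glioma cells, 2.14 and 3.38 in neural stem cells, and 0.19 and -0.58 in astrocytes. The deleted part of Ezh2 is not given, so this probe does not check the knockout.

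Marker genes set some arrays apart before any laminin result. Astrocyte array 2 had a mean fibroblast and meninges marker level of 4.13, against -0.35 on astrocyte array 1 (8 genes). Col1a2 was at 6.94 against -0.78 and Dcn at 6.71 against -0.79, and Col3a1, Lum and Slc6a13 were also lower on array 1. Astrocyte array 1 was not free of these markers, with Col1a1 at 4.69, Ogn at 2.75 and Aldh1a2 at 2.42, against 5.82, 4.35 and 2.42 on array 2. Both astrocyte arrays also carried microglial markers, with means of 2.96 and 3.34 over 10 genes. Each of 11 endothelial markers was well above background on the 3 tissue arrays, with means from -0.99 to -0.29. Of these, Cdh5, Cldn5, Tek, Tie1 and Emcn passed the filter on dim probes through the tissue alone. The filter thus favoured their reading above background there. On the MADM glioma cell arrays the endothelial means were -4.10 and -4.42, and Cdh5, Cldn5, Tek, Tie1 and Emcn were not well above background. Kdr and Pecam1 of the same list overlapped between the groups. Kdr read 2.73, 1.84 and 1.75 in the tissue and 2.68 and 2.87 in MADM glioma cells. Slco1a4 was higher in astrocytes (0.89 and 1.21) than in the tissue (-0.57, -0.06 and -0.66). Astrocyte markers (8 genes) averaged 2.67 to 3.66 in the tissue, -0.02 and -0.42 in MADM glioma cells, 3.71 and 0.48 in neural stem cells, and 5.24 and 3.62 in the astrocytes. The neural stem cell arrays differ in them, with Gfap, the astrocyte filament protein, at 1.85 on array 1 and not well above background on array 2. Neural stem cell markers averaged 4.66 and 4.70 in the neural stem cells, which also had high oligodendrocyte precursor markers (means of 3.77 and 4.76 over 7 genes). In MADM glioma cells the oligodendrocyte precursor means were 5.27 and 5.67, and Sox2, a stem cell factor, read -7.55 on array 1 against 2.28 on array 2.

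**Figure D1:**
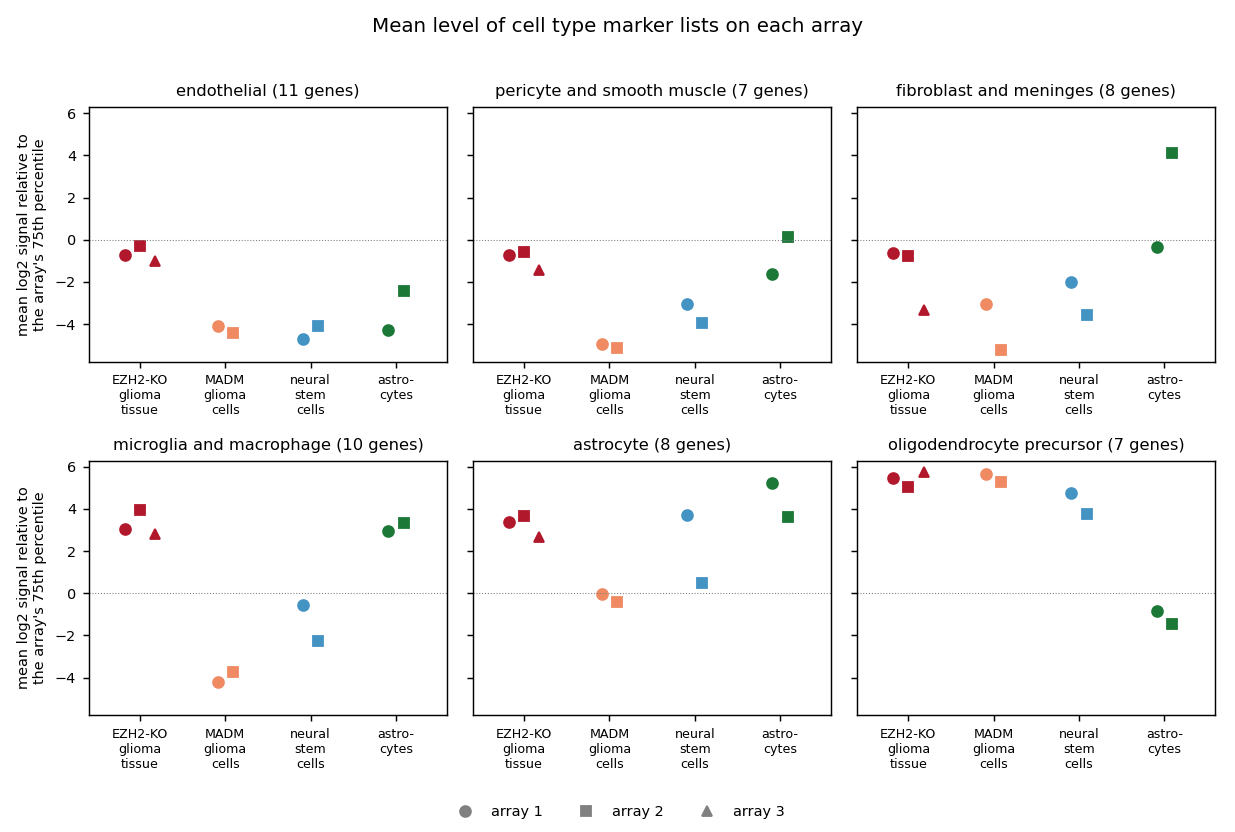
Mean log2 signal of 6 cell type marker lists (y axis, relative to the 75th percentile of each array) in the 4 groups (x axis), 1 point per array, with the symbol giving the array number. Astrocyte array 2 stands at 4.13 for the fibroblast and meninges list. The endothelial list is highest on the tissue arrays, and some of its genes passed the filter through the tissue alone.

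The results turn on 2 chains, Lamb2 and Lama2, which had the widest range of the 9 genes over the arrays. For Lamb2 that range takes in the low MADM glioma cell values that chose it, and for Lama2 it takes in MADM glioma cell readings not well above background. The probe that measured Lamb2 is shown first, in the sense of the transcript, with its position from the array's design. It has 1 of 3 forward reading frames without a stop codon.
Lamb2 probe A_51_P248044, chr9:108392189-108392248, plus strand, mm9: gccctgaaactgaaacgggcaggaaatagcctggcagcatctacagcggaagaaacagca

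The promoters of both genes, as the 250 bases before the RefSeq start, are shown beside that of Nid1, a gene whose level did not separate MADM glioma cells from neural stem cells. The RefSeq table held a promoter for 5 of the 9 genes. Capitals mark each CG dinucleotide, which reads the same on both strands.
Lamb2 promoter, chr9:108479612-108479861, plus strand, GRCm38.p6: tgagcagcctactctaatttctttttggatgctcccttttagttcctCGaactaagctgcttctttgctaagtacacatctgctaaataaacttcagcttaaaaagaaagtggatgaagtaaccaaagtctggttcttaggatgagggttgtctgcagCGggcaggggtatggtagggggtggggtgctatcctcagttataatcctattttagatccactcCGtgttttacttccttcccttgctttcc
Lama2 promoter, chr10:27616943-27617192, minus strand, GRCm38.p6: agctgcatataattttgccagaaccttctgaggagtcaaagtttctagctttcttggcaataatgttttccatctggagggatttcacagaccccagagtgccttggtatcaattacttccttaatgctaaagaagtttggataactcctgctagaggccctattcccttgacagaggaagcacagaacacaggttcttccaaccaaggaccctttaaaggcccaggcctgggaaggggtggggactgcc
Nid1 promoter, chr13:13437352-13437601, plus strand, GRCm38.p6: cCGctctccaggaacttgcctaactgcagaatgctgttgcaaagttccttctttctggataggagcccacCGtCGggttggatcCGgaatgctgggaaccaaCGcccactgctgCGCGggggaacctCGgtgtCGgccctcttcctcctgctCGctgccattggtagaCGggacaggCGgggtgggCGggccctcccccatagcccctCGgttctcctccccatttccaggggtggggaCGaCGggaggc
The Lamb2 window held 3 CG dinucleotides, and 37.8% of all 32851 promoter windows of this length held no more. The Lama2 window held 0, as did 7.9% of windows. The Nid1 window held 16, and 25.4% of windows held at least as many. The windows of Lama5 and Hspg2, not printed, held 19 and 20, against a median of 6 over all windows. These counts describe the sequence and were not set against any factor.

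Lamb2 encodes the laminin beta2 chain, found in vascular and pial basement membranes, at the neuromuscular junction and in the kidney filter. Lamb2 read -0.91, 0.26 and -1.14 in EZH2-KO glioma tissue, -4.85 and -4.27 in MADM glioma cells, 1.69 and 1.06 in neural stem cells, and 4.51 and 4.11 in astrocytes. Its order was astrocytes, neural stem cells, EZH2-KO glioma tissue and MADM glioma cells, and no array of one group overlapped with the next. The probe was well above background on each of the 9 arrays. The low level in MADM glioma cells is what chose the gene: the log2 difference was -5.94 from neural stem cells (61.3-fold lower) and -8.87 from astrocytes (468-fold lower). Equally with no test, EZH2-KO glioma tissue lay 3.97 log2 units (15.6-fold) above MADM glioma cells, a difference of 2.28 when the background was corrected by normexp instead.

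The other contrasts of Lamb2 were not themselves used to choose it. They share the neural stem cell and astrocyte readings against which its level in MADM glioma cells was low. Their p-values are thus not fully independent of the choice. Lamb2 was 7.63-fold lower in neural stem cells than in astrocytes, a log2 difference of -2.93 ± 0.38 (SE, limma adjusted p = 0.0122). Leaving out neural stem cell array 2 or astrocyte array 1 ended the call, with limma adjusted p of 0.0581 and 0.0568 and differences of -2.62 and -2.73. In EZH2-KO glioma tissue Lamb2 was 29.95-fold lower than in astrocytes, a log2 difference of -4.90 ± 0.47 (SE, limma adjusted p = 9.92e-04), called with each array left out in turn. Against neural stem cells the tissue was 3.93-fold lower, at -1.97 ± 0.47 (SE, limma adjusted p = 0.0263). That call did not hold without tissue array 1 or 3 or either neural stem cell array, where the limma adjusted p ran to 0.106 and the difference from -2.29 to -1.66.

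Lama2 encodes the alpha2 chain of laminin-211, which is made by brain pericytes and astrocytes and is lost in a congenital muscular dystrophy with white matter changes. On its brighter probe Lama2 read -0.90, -0.32 and -1.66 in EZH2-KO glioma tissue, -7.32 and -7.05 in MADM glioma cells, -3.01 and -3.90 in neural stem cells, and 1.79 and 0.42 in astrocytes. No 2 groups overlapped, in the order astrocytes, tissue, neural stem cells and MADM glioma cells. In MADM glioma cells neither Lama2 probe was well above background on either array. For such a gene a fold is a lower bound, set against the higher of the gene's own reading and the lowest signal well above background on that array. Lama2 was at least 20.8-fold higher in EZH2-KO glioma tissue than in MADM glioma cells, with a measured log2 difference of 6.23 ± 0.54 (SE, limma adjusted p = 7.84e-04). This call held with each array left out in turn. Its size depends on the background correction: with normexp the difference was 2.20 (limma adjusted p = 0.0145). As a description, the bound was at least 3.68-fold for neural stem cells over MADM glioma cells and at least 87.0-fold for astrocytes over MADM glioma cells.

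Lama2 in EZH2-KO glioma tissue was 5.65-fold higher than in neural stem cells (log2 difference 2.50 ± 0.54 SE, limma adjusted p = 0.0199) and 4.18-fold lower than in astrocytes (-2.06 ± 0.54 SE, limma adjusted p = 0.0312). The call over neural stem cells ended when tissue array 1 or 2 or neural stem cell array 2 was left out, and limma's adjusted p then ran to 0.132. It also ended with normexp (1.49, limma adjusted p = 0.0514). The call under astrocytes ended without tissue array 1, tissue array 3 or astrocyte array 1, where it ran to 0.182 and the difference to -1.38. Neural stem cells had 23.6-fold less Lama2 signal than astrocytes (-4.56 ± 0.57 SE, limma adjusted p = 0.0108), which was not called without neural stem cell array 2 (0.0601). The second Lama2 probe gave differences of 4.999 for tissue minus MADM glioma cells, 2.42 for tissue minus neural stem cells, -2.43 for tissue minus astrocytes and -4.84 for neural stem cells minus astrocytes, each with the sign of the first. Markers of several cell types were also higher in the tissue than in MADM glioma cells. Of 8 pericyte and smooth muscle markers Kcnj8 was too dim to test, and Rgs5, Abcc9 and Myh11 entered through the tissue alone. The means of the 7 tested were from -1.45 to -0.58 in the tissue, and -4.95 and -5.14 in MADM glioma cells, where Pdgfrb was not well above background. On the astrocyte arrays, where Lama2 was highest, these means were -1.63 and 0.12, with Pdgfrb at 1.28 and 2.45. Of the astrocyte markers 5 of 8 were called higher in the tissue than in MADM glioma cells (median difference 4.59), and of the microglial markers 9 of 10 (6.63). Over all genes 7.82% were called higher there, with a median difference of -0.16. The part of these cell types in the Lama2 result was not tested. In samples of many cells, fewer cells of a type and less RNA per cell cannot be told apart.

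**Figure D2:**
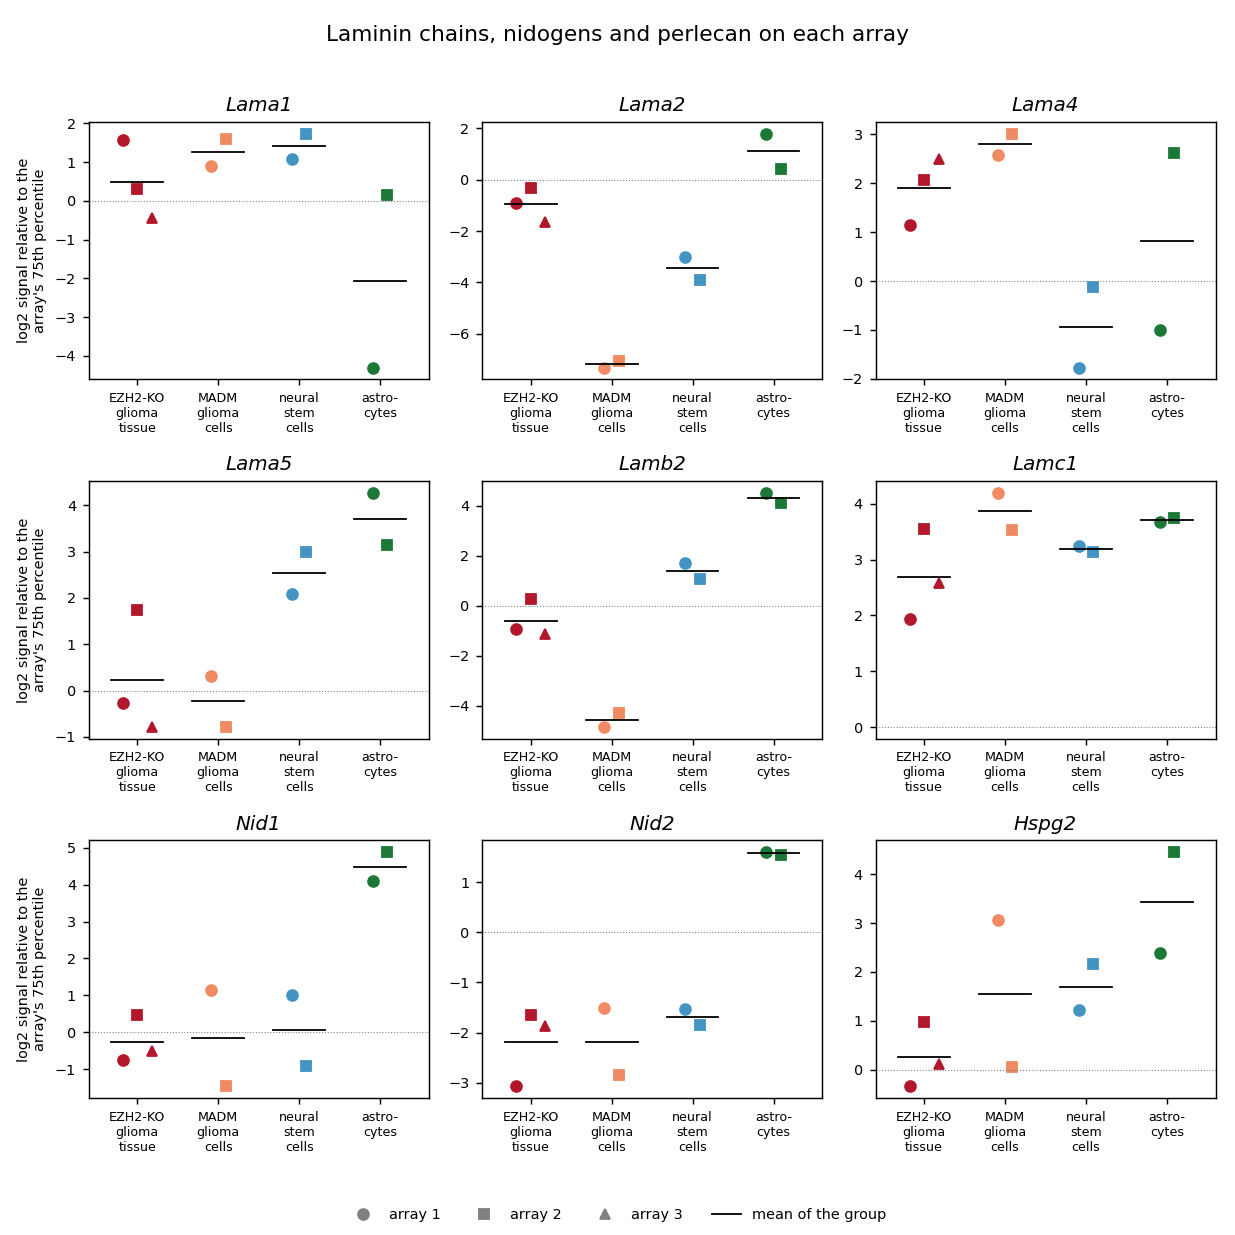
Log2 signal of each gene relative to the 75th percentile of its array (y axis, scale differs between panels) in the 4 groups (x axis), 1 point per array with the symbol giving the array number, and a bar at the group mean. Lamb2 and Lama2 are lowest on both MADM glioma cell arrays, and Lamc1 stays between 1.94 and 4.20 on all 9.

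Lama5, the alpha5 chain of laminin-511 and laminin-521, is broadly made by epithelium and mature endothelium and supports the self-renewal of stem cells in culture. Lama5 read -0.27, 1.73 and -0.79 in EZH2-KO glioma tissue, 0.33 and -0.78 in MADM glioma cells, 2.09 and 2.98 in neural stem cells, and 4.26 and 3.14 in astrocytes. Both glioma groups lay below both normal groups on each array, and the glioma groups overlapped each other. In the tissue Lama5 was 11.1-fold lower than in astrocytes (log2 difference -3.48 ± 0.79 SE, limma adjusted p = 0.0185), a call that ended when tissue array 1, tissue array 3 or astrocyte array 1 was dropped, at up to 0.109. Against neural stem cells the tissue differed by -2.31 with a 95% interval from -4.14 to -0.48, which was not called (limma adjusted p = 0.0799) unless tissue array 2 was left out, where the difference was -3.06.

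Lama4, the alpha4 chain of laminin-411, is the laminin of endothelial and other mesenchymal basement membranes and accompanies vessels in high-grade glioma. Lama4 ran the other way from Lamb2 in the glioma samples. It read 1.15, 2.06 and 2.49 in EZH2-KO glioma tissue, 2.58 and 3.01 in MADM glioma cells, -1.77 and -0.13 in neural stem cells, and -0.99 and 2.61 in astrocytes. Each of the 5 glioma arrays was above both neural stem cell arrays, while the astrocyte arrays were 3.60 log2 units apart. As a description, MADM glioma cells exceeded neural stem cells by 3.74 log2 units (13.4-fold). The tissue exceeded neural stem cells by 2.85 (7.21-fold), with a 95% interval from 0.49 to 5.21, and was not called (limma adjusted p = 0.0899). It was called when either astrocyte array was left out, and when the tissue and neural stem cell arrays were fitted alone (0.0308), with the same difference. On both MADM glioma cell arrays 6 of 11 endothelial markers were well above background and 5 were not, as on both neural stem cell arrays, and the part of endothelial RNA in the Lama4 levels was not tested.

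Lama1, the alpha1 chain of the embryonic laminin-111 and of pial and ventricular basement membranes, read 1.58, 0.31 and -0.43 in EZH2-KO glioma tissue, 0.90 and 1.61 in MADM glioma cells, 1.09 and 1.74 in neural stem cells, and -4.31 and 0.16 in astrocytes. The first 3 groups overlapped at similar levels, and astrocyte array 1 stood alone. No tested comparison of Lama1 was called, with limma adjusted p between 0.149 and 0.686. Without astrocyte array 2 both the tissue and the neural stem cells were called above the remaining astrocyte array, by 4.80 and 5.72 log2 units.

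Lamc1 encodes gamma1, the gamma chain of most laminins and the partner of both Lamb1 and Lamb2. It read 1.94, 3.56 and 2.58 in EZH2-KO glioma tissue, 4.20 and 3.53 in MADM glioma cells, 3.25 and 3.14 in neural stem cells, and 3.68 and 3.74 in astrocytes. Its standard deviation over the 9 arrays was 0.67, larger than that of 49.3% of all tested genes, whereas that of Lamb2 was 3.26 and that of Lama2 was 3.18, larger than 98.7% and 98.5% of genes. From the lowest to the highest array the gamma chain spanned 2.25 log2 units, against 9.36 for Lamb2 and 9.11 for Lama2. The spread of Lamb2 takes in the low MADM glioma cell values that chose it, so its rank is a description only. That of Lama2 takes in MADM glioma cell readings not well above background, so its size depends on the background correction. Tissue minus MADM glioma cells was -1.17 (95% interval -2.25 to -0.09, limma adjusted p = 0.120) and tissue minus astrocytes was -1.01 (-2.10 to 0.07, limma adjusted p = 0.148), and neither was called. Both were called when tissue array 2, its highest, was left out, at -1.60 and -1.45.

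Nid1 and Nid2 bind the gamma1 chain and connect it to collagen IV. Nid1 read -0.74, 0.47 and -0.52 in EZH2-KO glioma tissue, 1.15 and -1.46 in MADM glioma cells, 1.02 and -0.91 in neural stem cells, and 4.10 and 4.88 in astrocytes. Nid2 read -3.07, -1.65 and -1.87 in EZH2-KO glioma tissue, -1.50 and -2.85 in MADM glioma cells, -1.53 and -1.85 in neural stem cells, and 1.60 and 1.54 in astrocytes. For both nidogens the astrocytes stood above the other 3 groups, which overlapped with each other. Nid1 was 26.9-fold lower in tissue than in astrocytes (log2 difference -4.75 ± 0.87 SE, limma adjusted p = 0.00873, lost without astrocyte array 2 at 0.0556). Nid2 was 13.6-fold lower (-3.77 ± 0.53 SE, limma adjusted p = 0.00346), called with each array left out in turn.

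Nid2 was 9.58-fold lower in neural stem cells than in astrocytes (-3.26 ± 0.49 SE, limma adjusted p = 0.0173). That call was lost without any 1 of the 4 arrays compared (adjusted p up to 0.0893). Nid1 differed by -4.43 ± 1.06 (SE), with a 95% interval from -7.10 to -1.76, and missed the threshold at a limma adjusted p of 0.0506. It passed without either MADM glioma cell array, with the same difference, and under normexp, the mean of probes, a filter on every array and a spread shared by all 9 arrays (limma adjusted p from 0.0181 to 0.0465). The other Nid1 probes were dim, 1 of them above background on the astrocyte arrays alone. Against astrocytes they gave -4.16 and -4.69 for the tissue and -4.57 and -3.12 for neural stem cells, the same sign as the bright probe.

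Hspg2 encodes perlecan, a heparan sulphate proteoglycan that binds growth factors and dystroglycan. It read -0.34, 0.98 and 0.11 in EZH2-KO glioma tissue, 3.06 and 0.06 in MADM glioma cells, 1.23 and 2.17 in neural stem cells, and 2.40 and 4.45 in astrocytes. The MADM glioma cell arrays were 3.00 log2 units apart and spanned the tissue and neural stem cell values. Tissue was 9.03-fold lower than astrocytes (-3.17 ± 0.96 SE, limma adjusted p = 0.0488). This call was lost in 7 of the 9 fits with an array left out, all but those without a MADM glioma cell array, with adjusted p up to 0.254, and also with no filter (0.0650) or the mean of probes (0.0860). The second Hspg2 probe, dimmer, gave -2.51 for the same comparison.

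Counted over the set, EZH2-KO glioma tissue had 6 of 9 genes called lower than astrocytes (66.7%) and 0 higher: Lama2, Lama5, Lamb2, Nid1, Nid2 and Hspg2. Over all 25398 genes tested, 23.0% were called in that comparison, and 12.4% were called lower. The median difference of the set was -3.17, against -0.06 over all genes. Without astrocyte array 2, which had the higher mean of fibroblast and meninges markers, the calls of Nid1 and Hspg2 were lost and Lama1 was called higher. Without astrocyte array 1, tissue array 1 or tissue array 3 the calls of Lama2, Lama5 and Hspg2 were lost. Against neural stem cells 1 of 9 was called higher in the tissue (Lama2) and 1 lower (Lamb2), or 22.2%, near the 18.0% of all genes, of which 8.08% were higher and 9.89% lower. Against MADM glioma cells 1 of the 8 genes tested, Lama2, was called higher, where 16.9% of all genes were called and 7.82% were higher.

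In neural stem cells 3 of 9 genes, Lamb2, Nid2 and Lama2, were called lower than in astrocytes (33.3%) and 0 higher, where 14.7% of all 24868 genes tested were called and 7.89% were called lower. The median difference of the set was -1.76, against 0.21 over all genes. All 3 calls were lost without neural stem cell array 2, the array with the lower astrocyte markers, whose part was not tested. Without astrocyte array 1 the Lama2 call alone held. Without astrocyte array 2 the calls of Lama2 and Lamb2 held, Nid2 was lost (limma adjusted p = 0.0756) and Lama1 was called higher (5.72, 0.0236). In the comparisons that chose the set the median difference, given with no test, was -3.75 for MADM glioma cells minus astrocytes, against 0.15 over all genes, and -0.21 for MADM glioma cells minus neural stem cells, against -0.05.

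**Figure D3:**
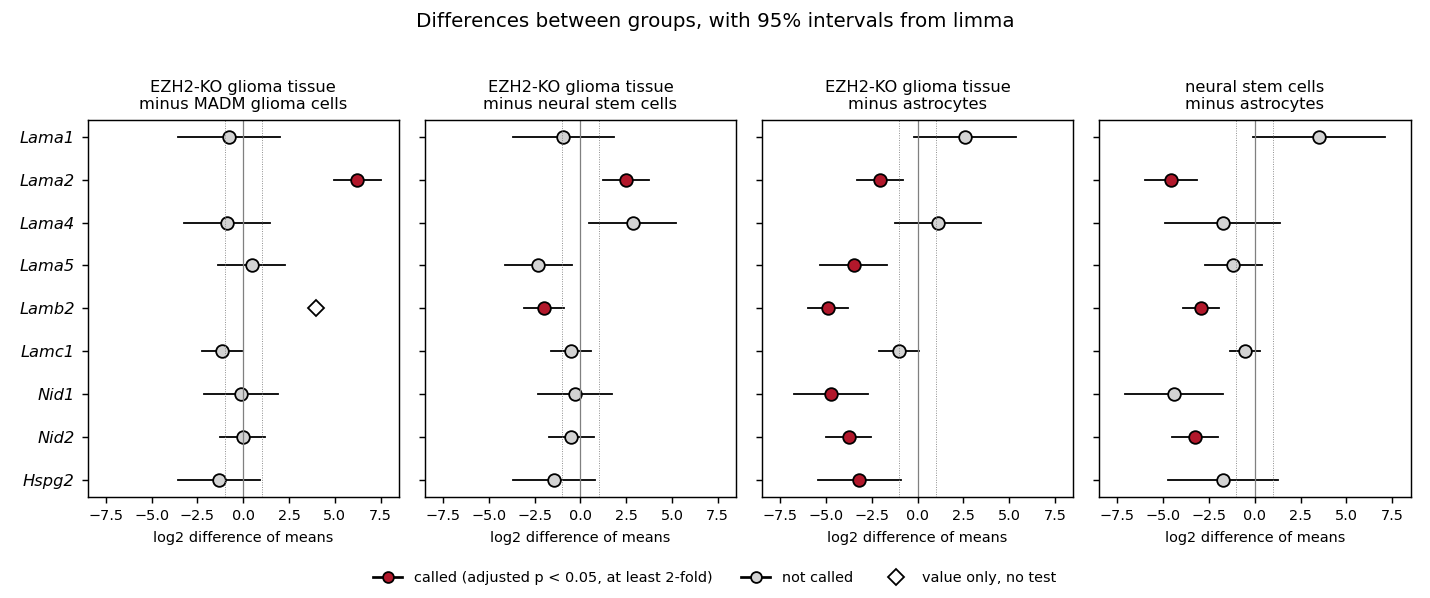
Log2 difference of group means (x axis) for each gene (y axis) in 4 comparisons, with 95% intervals from limma. Red points were called, grey points were not, and the open diamond for Lamb2 is a value with no test. Dotted lines mark a 2-fold difference. Lama2 in tissue minus MADM glioma cells (6.23) rests on a group not well above background. In tissue minus astrocytes 6 genes are called, each lower.

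The remaining laminin chains and other basement membrane components were followed through a list of 26 genes, of which 22 could be tested with all arrays. Col4a3, Col15a1, Egflam and Hmcn1 were too dim. Lamc3, the gamma3 laminin chain, entered through the tissue alone, where it was well above background on each array. It could thus be called only as high there. Its values are given as a description, and genes of this list called higher in the tissue are not counted. Tissue against astrocytes had 6 of 22 called lower, where 12.4% of all genes were called lower. The largest falls were Col4a6 (-7.00, limma adjusted p = 0.00271) and Col4a5 (-5.79, 0.00990), and Smoc1 rose (2.16, 0.0109). Col4a5 and Col4a6 encode collagen IV chains and are neighbours read from a shared promoter region. Smoc1 is a calcium-binding matricellular protein. Without astrocyte array 1 the calls of Col4a5 and Smoc1 were lost.

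Col4a6 read -3.65, -1.51 and -3.91 in EZH2-KO glioma tissue, -6.38 and -6.03 in MADM glioma cells, -0.66 and -2.78 in neural stem cells, and 4.84 and 3.11 in astrocytes. The MADM glioma cell values were not well above background, and the astrocyte arrays stood above the rest. Among neural stem cells and astrocytes 1 of 21 genes tested was called higher in the stem cells, Smoc1 (3.83, limma adjusted p = 0.0101), and 2 lower, Col4a6 among them (-5.69, 0.0183), which is 14.3% against the 14.7% of all genes. For Col4a6 the call ended without neural stem cell array 2 or astrocyte array 1, at up to 0.0686.

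Tissue had 0 of these 22 genes called lower than MADM glioma cells. Lamc3 set aside, those called higher included Ntn4 (2.83, limma adjusted p = 0.00723), the laminin-related netrin-4. Ntn4 was well above background on 1 of the 2 MADM glioma cell arrays. Of all genes 16.9% were called in that comparison, and 7.82% were called higher. Lamc3 read -2.73, -2.33 and -3.23 in EZH2-KO glioma tissue, -7.03 and -7.09 in MADM glioma cells, -4.59 and -4.93 in neural stem cells, and -6.60 and -5.27 in astrocytes. Neither MADM glioma cell array and 1 array each of the neural stem cells and astrocytes had it well above background. Against neural stem cells 1 of the 22 was called lower in the tissue, Smoc1 (-1.67, limma adjusted p = 0.0319), where 9.89% of all genes were called lower. The Smoc1 call was lost in 4 of the fits with an array left out. As a description, MADM glioma cells minus astrocytes was 3.49 for Smoc1 and -8.84 for Col4a5, well above background on 1 of the 2 MADM glioma cell arrays, while Col4a6 was at least 635-fold lower. Minus neural stem cells it was -5.90 for Col4a5, with the same limit, and 5.13 for Smoc2, which read 4.57 and -1.08 on the MADM glioma cell arrays.

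Lamb1, the beta1 chain that can stand in the place of beta2 in a laminin trimer, was named after its values were seen. It read 0.06, 1.43 and 0.97 in EZH2-KO glioma tissue, 0.18 and 1.68 in MADM glioma cells, 0.32 and 1.93 in neural stem cells, and -0.24 and 4.56 in astrocytes. The first 3 groups overlapped, with no drop in MADM glioma cells like that of Lamb2, and the astrocyte arrays lay at both extremes. Col4a1 and Col4a2, the main collagen IV chains, likewise chosen after their values were seen, read 1.87 and 0.93 on astrocyte array 1 and 4.65 and 4.35 on array 2. Astrocyte array 2 is the array with the higher mean of fibroblast and meninges markers, whose part in these levels was not tested.

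**Figure D4:**
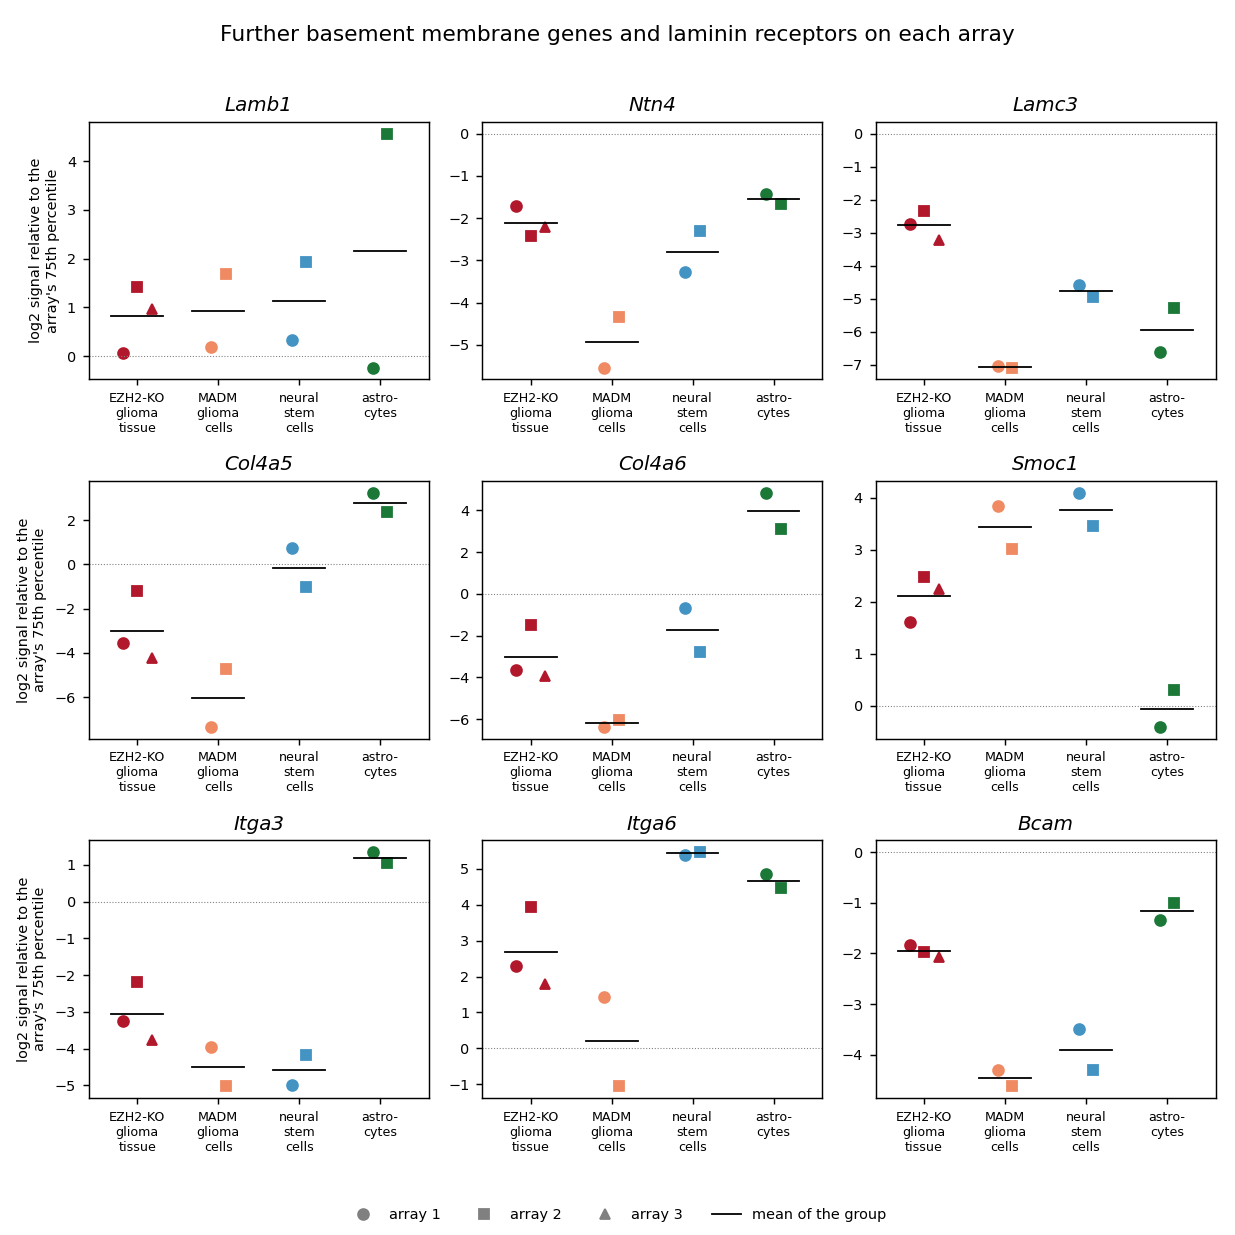
Log2 signal relative to the 75th percentile of each array (y axis, scale differs between panels) of 6 further basement membrane genes and 3 laminin receptors in the 4 groups (x axis), 1 point per array, with a bar at the group mean. Lamb1 overlaps between the first 3 groups, and Itga3 is above 1 on both astrocyte arrays and below -2 on the others.

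Of the laminin receptors (8 genes, each tested), tissue had 3 called lower than astrocytes and 0 higher (37.5%, against 23.0% of all genes): Itga3 (-4.26, limma adjusted p = 0.00239), Cd151 (-3.26, 0.0299) and Dag1 (-1.63, 0.0123). Itga3 and Itga6 encode laminin-binding integrin alpha chains, Cd151 is a tetraspanin that associates with them, and Dag1 encodes dystroglycan. The Dag1 call was lost without astrocyte array 1 and the Cd151 call without tissue array 1 or 3 or either astrocyte array. In neural stem cells 3 of 8 were called lower than in astrocytes (37.5%, against 14.7%): Itga3 (-5.78, limma adjusted p = 0.00557), Itgb4 (-4.39, 0.0243), the partner of Itga6, and Bcam (-2.73, 0.0144), the Lutheran receptor for the alpha5 chain. The Itgb4 call was lost without either neural stem cell array, and that of Bcam without neural stem cell array 2 or either astrocyte array.

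Itga6, the alpha6 integrin used to enrich neural and glioma stem cells, read 2.30, 3.94 and 1.78 in EZH2-KO glioma tissue, 1.44 and -1.06 in MADM glioma cells, 5.40 and 5.47 in neural stem cells, and 4.86 and 4.47 in astrocytes. The MADM glioma cells were lowest on both arrays. As a description they differed by -5.24 from neural stem cells and by -4.47 from astrocytes. Itga7, another integrin alpha chain, differed by -2.90 from neural stem cells with overlapping arrays. Bcam was higher in tissue than in MADM glioma cells (2.51, limma adjusted p = 0.00258), the 1 gene of 8 called (12.5%, against 16.9% of all genes). It was also higher than in neural stem cells (1.95, 0.00669), where 2 of 8 were called (25.0%, against 18.0% of all genes). The second was Itgb4 (2.46, 0.0396, lost in 7 of the fits with an array left out).

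The dystroglycan complex and the enzymes that glycosylate dystroglycan for laminin binding were followed as 15 genes, each tested. Between neural stem cells and astrocytes 0 of 15 were called by limma, against 14.7% of all genes. The largest difference was that of Sgcd (-1.59, limma adjusted p = 0.245), which was well above background on 1 of the 2 neural stem cell arrays. Tissue had 4 called lower than astrocytes and 1 higher (33.3%, against 23.0% of all genes). Lower were, among others, Utrn (-1.74, limma adjusted p = 0.00706) and Dmd (-1.39, 0.0468), which encode utrophin and dystrophin, and higher was Sgcd, delta-sarcoglycan (2.48, 0.0468). Of these the Utrn call held with each array left out, and those of Dmd and Sgcd were lost in several such fits (adjusted p up to 0.255). Sgcd was also the 1 gene of 15 called above neural stem cells (6.67%, against 18.0% of all genes called), with the same limit on its neural stem cell level. Its difference was 4.07 (limma adjusted p = 0.0109), not called without neural stem cell array 2. B4gat1, which primes the laminin-binding sugar chain of dystroglycan, was the 1 gene of 15 called above MADM glioma cells (6.67%, against 16.9% of all genes called). Its difference was 1.13 (limma adjusted p = 0.03997), and the call was lost in 6 of the fits with an array left out. Described without a test, B4gat1 in MADM glioma cells minus astrocytes was -2.29, and Dmd was -2.20. Minus neural stem cells the differences were 4.43 for Sgcd, again with that limit, and -2.22 for Dmd.

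Over the 9 arrays, which hold 4 groups and so are not independent points, Nid1 and Nid2 had the highest correlation of the 36 pairs in the set (Pearson r = 0.96). Lamb2 followed Lama5 (r = 0.85) and Lama2 (0.84), had no relation with Lamc1 (0.00), and ran against Lama4 (-0.57) and Lama1 (-0.56). Among 15867 genes with a symbol, the 5 closest to Lamb2 over the 9 arrays were Mcc (r = 0.99), Il11ra1 (0.98), Ghr (0.98), Cyb561a3 (0.98) and Mid2 (0.97). Mcc, a negative regulator of Wnt signalling, read 0.04, 0.72 and -0.35 in EZH2-KO glioma tissue, -2.48 and -1.57 in MADM glioma cells, 2.26 and 1.80 in neural stem cells, and 3.81 and 3.12 in astrocytes. It had the same order of groups as Lamb2, which its choice by correlation favours. The Lamb2 profile takes in the low MADM glioma cell values that chose Lamb2. The 5 closest to Lamc1 were Fkbp15 (0.95), Cc2d1b (0.94), Slc26a2 (0.92), Wasf2 (0.91) and Fbxw8 (0.91). Those closest to Lama4 were Btg3 (0.99), Pde8a (0.96), S1pr2 (0.96), Ulbp1 (0.96) and Hpn (0.95). These are descriptions over 9 points that share group, slide and scan.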

How the data were processed

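Per the file headers, the deposited scanner files were written by Agilent Feature Extraction (10.7.3.1 for tissue, 10.7.1.1 for cells) and hold spot intensity on a linear scale. The authors' processed signal is background-subtracted and detrended within each array, not scaled between arrays. The deposited value table holds log2 processed signals without scaling between arrays: at least 99.2% of its values per array lay within 0.01 of log2 of the scanner signal. Outlier spots (96 to 164 per array) were left out, no spot was saturated, and spots of 1 probe were averaged. Signals were scaled by the 75th percentile of each array. The number of arrays limits the precision.

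A probe entered the test when all arrays of 1 or more groups had it well above background, and the brightest tested probe stood for its gene. Groups came from the sample titles. limma 3.58.1 (lmFit, eBayes, R 4.3.3) was fitted to all genes, on the 6 cell arrays for neural stem cells against astrocytes and for MADM glioma cells, and on all 9 for the tissue, two-sided, and was checked on simulated data. Tables used pandas 2.3.3 and numpy 2.4.6 in Python 3.11.15, and figures matplotlib 3.10.9. Names come from the cell array files and a RefSeq table, sequences from RefSeq (GRCm38.p6) and the array files (mm9). The genes and lists were chosen with earlier results of these data known. Within the further lists, the up to 3 largest called rises and falls per comparison are named, or the 2 largest differences where none was called, and the 5 genes most correlated with Lamb2, Lamc1 and Lama4. Alternatives were normexp, quantile scaling, the deposited table, 2 other filters, the mean of probes, other pooling of the spread, a replicate block and each array left out. Some genes and sequences chosen by these rules are not reported here.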

Additional observations from a re-analysis of the deposited data

How the results depend on the processing

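With 1 array left out, the counts of all genes called ran from 1237 to 2613 for neural stem cells minus astrocytes (3653 with all arrays), 0 to 300 for MADM glioma cells minus neural stem cells (248), 2072 to 4797 for MADM glioma cells minus astrocytes (4729), 1979 to 4647 for EZH2-KO glioma tissue minus MADM glioma cells (4299), 1643 to 4259 for tissue minus neural stem cells (4565) and 3183 to 6050 for tissue minus astrocytes (5833).
Genes of the set called ran from 0 to 4 for neural stem cells minus astrocytes, 1 to 2, 0 to 3 and 3 to 6 for tissue minus MADM glioma cells, minus neural stem cells and minus astrocytes. A group left with 1 array is then assumed to vary like the others. With every array required above background, 68 genes were called for MADM glioma cells minus neural stem cells and 2765 for tissue minus MADM glioma cells, with 0 of 7 genes of the set there, since Lama2 was no longer tested, and 1 of 8 for tissue minus neural stem cells. With no filter, MADM glioma cells minus neural stem cells had 134 calls, and with the spread shared by all 9 arrays 492. Normexp, run on the median signal because the tissue files hold no mean signal, left 1 gene of the set for tissue minus neural stem cells, and gave smaller differences for dim genes: Lamb2 in MADM glioma cells minus neural stem cells was -4.12 and minus astrocytes -7.01, Lama2 -0.71 and -4.06. Tissue minus MADM glioma cells was 2.28 for Lamb2 and 2.20 for Lama2 (limma adjusted p = 0.0145).

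The replicate numbers do not pair the samples (correlations of deviations from -0.16 to 0.12 over 12 pairs). With the replicate block, 50 genes were called for MADM glioma cells minus neural stem cells, 2602, 2605 and 3176 for tissue minus MADM glioma cells, minus neural stem cells and minus astrocytes, with 1 and 3 genes of the set called in the last pair. In those tissue fits the block leaves tissue array 3, the single array numbered so, without weight. Scan and slide could not be fitted as a block, because each holds tissue or cells alone.

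Under the alternatives other than leaving out an array, 406 values of single genes stayed the same, 7 lost a call and 5 gained one. Of the rest, 6 untested values moved by more than the spread between arrays and 2 values turned. Tested values counted as the same kept their direction and their side of the threshold. Untested values counted as the same moved by less than the spread between arrays. Directions turned for genes that were not called. Tissue minus MADM glioma cells gave Nid1 0.11 with the mean of probes and 0.017 with the replicate block. With 1 array left out it ran from -1.42 to 1.20 for Nid1, -0.69 to 0.66 for Nid2, -0.30 to 1.01 for Lama5 and -2.81 to 0.20 for Hspg2. Nid1 in tissue minus neural stem cells ran from -1.28 to 0.64, and Lama4 from -3.56 to 0.042 in neural stem cells minus astrocytes and from -0.71 to 2.89 in tissue minus astrocytes. The last 2 ranges turn on which astrocyte array is left out. The cause was not tested.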
